A study of Mus musculus with 18 samples.

Results

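The genes described here encode the calcium-regulated phosphatase calcineurin, the transcription factors of the NFAT family and the binding proteins that restrain calcineurin, in mouse B cells before and after their differentiation. They are 10 of the 21761 genes in the expression table, namely Nfatc1, Nfatc2, Nfatc3, Nfat5, Ppp3ca, Ppp3cb, Ppp3cc, Ppp3r1, Rcan1 and Rcan3, taken by symbol. Nfatc1 and Nfatc2 were chosen from the study's results in Dnmt3-deficient plasma cells, which include their values there. The study names both among genes that differed in expression, DNA methylation and/or chromatin accessibility, and Nfatc1 for aberrant expression. So the genotype difference in plasma cells is given for all 10 genes as a description without a test. All 10 genes passed the filter on low values, which was FPKM above 1 in at least 2 libraries and which 11522 genes passed. FPKM is a fragment count scaled by exon length and by the reads of the library, a scale on which levels of different genes can be set side by side.

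RNA was measured in 18 libraries of sorted cells, with 3 libraries for every pairing of 3 cell types with 2 genotypes. Naive B cells (nB) had been sorted from lymph nodes of mice without immunization, as B220+ cells negative for GL7 and Fas. Germinal center B cells (GCB) were sorted from lymph nodes as B220+ cells that carried GL7 and Fas and bound phycoerythrin (PE). Plasma cells (BMPC) were sorted from bone marrow by CD138, and both kinds were taken 30 days after the mice received PE in complete Freund's adjuvant. Mice of both genotypes were Dnmt3afl/fl Dnmt3bfl/fl, so both groups carried the floxed alleles, and only the Dnmt3-deficient mice carried a Cre recombinase, which is specific to B cells and acts from an early B cell stage. Only the parts of Dnmt3a and Dnmt3b that encode the catalytic domain were floxed. The mice were 8 to 12 weeks old at the start, of mixed B6 and 129S4 strain background, and each nB and GCB group held 2 female and 1 male library while each BMPC group held 1 female and 2 male libraries. Each library came from 5000 sorted cells, and each GCB sample was a pool of 2 mice.

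Calcineurin links calcium to transcription in lymphocytes. Signaling from the B cell receptor opens calcium stores and then calcium channels of the plasma membrane, calcium-bound calmodulin activates calcineurin, and calcineurin removes phosphate groups from NFATc proteins, which then enter the nucleus and bind DNA, often beside AP-1 factors. The active enzyme pairs a catalytic A subunit (encoded by Ppp3ca, Ppp3cb or Ppp3cc) with a regulatory B subunit (Ppp3r1 outside the testis). Rcan proteins bind calcineurin and inhibit it, and Nfat5 differs from the other family members in that it does not bind calcineurin and responds to osmotic stress.

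The cell types carried the markers of their labels. The summed FPKM of 6 naive markers was 1781 to 1945 in nB and at most 218 elsewhere, that of 7 germinal center markers was 1049 to 1161 in GCB and at most 83.5 elsewhere, and that of 8 plasma cell markers was 19038 to 51658 in BMPC against 332 to 1608 in the other cells. BMPC libraries were shallower, with 1355231 to 3803197 reads on genes, whereas nB held 6692516 to 8987922 and GCB 7644544 to 8903872, and a BMPC library had 2991 to 4615 of the tested genes at 0 reads, where nB had 891 to 1252 and GCB 680 to 1242. BMPC also held RNA of markers of other bone marrow cells. Early B cell markers summed to 686 to 805 and 415 to 808 FPKM in Dnmt3-sufficient and Dnmt3-deficient BMPC, against 185 to 276 in nB and 263 to 378 in GCB, and among them Dntt was at 305 to 581 FPKM in BMPC and at most 22.3 elsewhere. Igll1 and Il7r were also higher in each BMPC library than in any other library. Vpreb3, most of the sum in nB and GCB, was lower in each Dnmt3-deficient BMPC library (109.9, 226.8 and 71.1 FPKM) than in any GCB library. In Dnmt3-sufficient BMPC it was at 354, 337 and 171 FPKM. Vpreb1, Rag1 and Rag2 were each at 0 in some BMPC libraries. The NK cell markers summed to 60.5 to 137 and 26.3 to 78.7 FPKM in the BMPC groups, a range that overlapped the 46.1 to 131 of nB. In GCB they summed to at most 2.41. Ncr1 and Klrb1c were at 0 in both BMPC groups, where the sum was all Nkg7 except for Gzma in Dnmt3-deficient replicate 1. Of 7 erythroid markers, 6 were in the table, and none of these was at 0 throughout either BMPC group. Their summed FPKM was 4500 to 7202 in Dnmt3-sufficient and 1523 to 4342 in Dnmt3-deficient BMPC, against at most 290 in nB and 48.2 in GCB. The 7 neutrophil markers in the table summed to 63.4 to 526 and 9.37 to 582 FPKM in the BMPC groups, with Elane, Camp and Ltf at 0 in all Dnmt3-deficient BMPC, and to 0 in every nB and GCB library. The 7 macrophage markers summed to 63.5 to 87.7 and 98.4 to 227 FPKM, with C1qa and C1qc at 0 in both BMPC groups. Their sum was at most 73.9 in nB, which overlapped Dnmt3-sufficient BMPC, and at most 19.7 in GCB. Osteoclast markers were not raised in BMPC, with sums of 25.5 to 163 and 7.31 to 35.8 FPKM in the BMPC groups. Their sums were 159 to 209 in nB and 59.3 to 70.4 in GCB. Megakaryocyte markers summed to at most 6.05 FPKM in BMPC and at most 0.349 elsewhere. For T cells the 8 markers summed to 97.2 to 231 and 185 to 275 FPKM, against 60.3 to 155 in nB and 78.3 to 134 in GCB. Cd4 was at 0 in the Dnmt3-sufficient and Cd8a at 0 in the Dnmt3-deficient BMPC libraries. The part of these cells in the BMPC values below was not tested. The exon sum of Dnmt3a was 2.35 to 5.18 FPKM in nB of Dnmt3-sufficient mice and 2.24 to 4.33 in those of Dnmt3-deficient mice, and since most exons are left in place this does not check the genotype labels.

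Among the genes of the catalytic subunit, the highest group mean was that of Ppp3ca in nB of both genotypes and that of Ppp3cc in GCB and in BMPC of both genotypes, although Ppp3cc overlapped its neighbours in Dnmt3-sufficient GCB. Ppp3ca made up 49.2 to 67.0% of the summed FPKM of the 3 catalytic genes in the 6 nB libraries, but 17.9 to 30.7% in GCB and 4.51 to 36.1% in BMPC. Ppp3cc accounted for 19.1 to 34.2% of the sum in nB, 32.7 to 49.8% among GCB and 60.9 to 82.1% among BMPC libraries, and every BMPC library lay above every nB and GCB library. The share of Ppp3cb ran from 9.63 to 19.5% among nB, from 20.7 to 44.1% among GCB and from 0.443 to 15.3% among BMPC libraries. Together the 3 genes reached 66.3 to 131 FPKM per nB library, 45.6 to 57.1 per GCB library and 79.0 to 158 per BMPC library. These shares are descriptions of the libraries, and the tests of single genes follow.

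**Figure D1:**
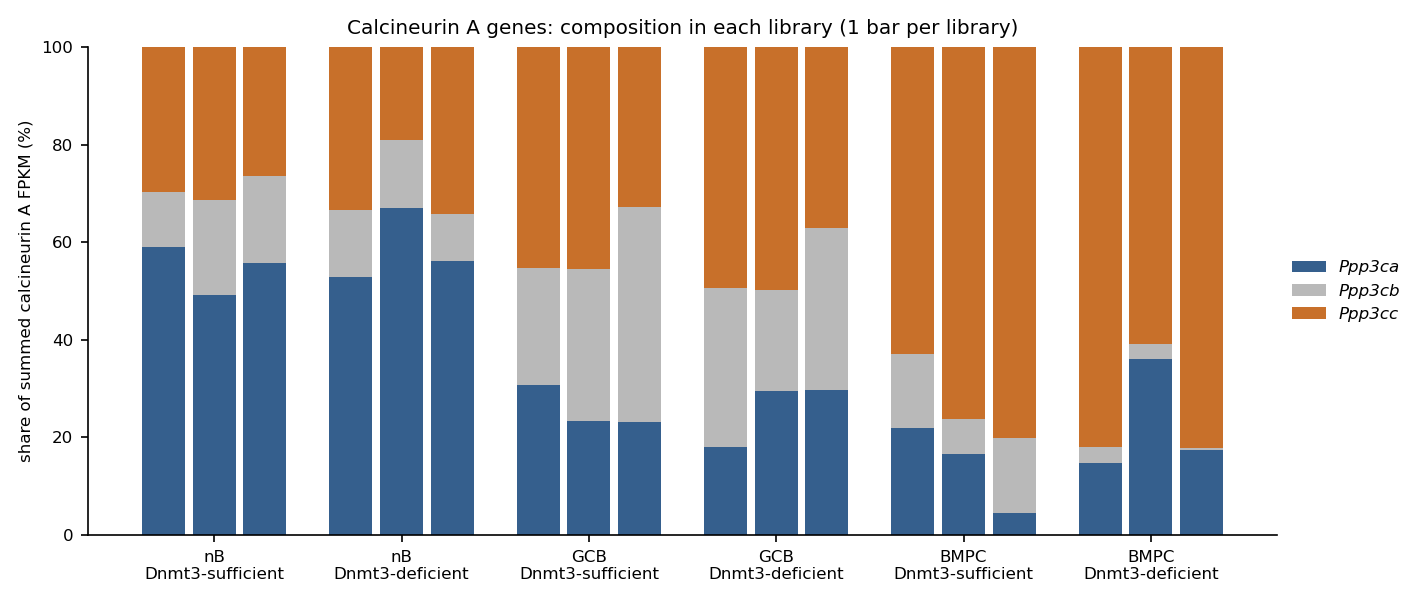
Share (%) of Ppp3ca, Ppp3cb and Ppp3cc in the summed FPKM of the 3 genes of the calcineurin A subunit, with 1 stacked bar for each of the 18 libraries. Ppp3ca holds at least 49.2% of every nB bar and Ppp3cc at least 60.9% of every BMPC bar.

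Ppp3ca (Entrez 19055, chromosome 3, 136333088 to 136600691 on mm9), which encodes the alpha form of the catalytic subunit, was at 77.4, 43.8 and 47.3 FPKM in the 3 Dnmt3-sufficient nB libraries and 46.8, 54.1 and 37.2 in the Dnmt3-deficient nB libraries. In GCB it was at 14.8, 11.9 and 10.7 FPKM in Dnmt3-sufficient and 9.94, 13.4 and 17.0 in Dnmt3-deficient libraries. In BMPC it was at 21.9, 24.4 and 3.56 FPKM in Dnmt3-sufficient and 23.2, 47.7 and 26.3 in Dnmt3-deficient libraries. Every GCB library lay below every nB library of either genotype, while in Dnmt3-deficient BMPC the values overlapped those of nB. Ppp3ca fell from nB to GCB in Dnmt3-sufficient cells, from 56.2 ± 18.5 to 12.5 ± 2.09 FPKM (SD, n = 3), a change of -2.05 ± 0.54 (SE) on the log2(FPKM + 1) scale with a limma adjusted p of 0.0150. It fell from 46.0 ± 8.46 to 13.5 ± 3.54 FPKM in Dnmt3-deficient cells, a change of -1.72 ± 0.54 with an adjusted p of 0.0426. From nB to BMPC it fell to 16.6 ± 11.4 FPKM in Dnmt3-sufficient cells (-2.00, adjusted p 0.00793). In Dnmt3-deficient cells the BMPC mean was 32.4 ± 13.3 FPKM, a change of -0.55 that was not called. From GCB to BMPC Ppp3ca changed by 0.05 in Dnmt3-sufficient and by 1.17 in Dnmt3-deficient cells (limma adjusted p 0.106, unadjusted 0.0459), and neither was called. The call from nB to GCB was lost in Dnmt3-sufficient cells without nB replicate 1 (adjusted p 0.0717) or GCB replicate 3 (0.0571). In Dnmt3-deficient cells it was lost without any 1 of the 6 libraries (0.0710 to 0.157) or with a pseudocount of 0.1 (0.0733). The call from nB to BMPC in Dnmt3-sufficient cells was lost in a fit of only those groups (0.109).

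Ppp3cc (Entrez 19057, chromosome 14, 70617705 to 70689257), the gene of the gamma form of the catalytic subunit, had no called change from nB to GCB and rose into BMPC. It was at 39.0, 27.9 and 22.4 FPKM in Dnmt3-sufficient nB, and the Dnmt3-deficient nB libraries held 29.6, 15.4 and 22.7. The GCB libraries held 21.8, 23.3 and 15.01 FPKM and 27.4, 22.7 and 21.2. The BMPC libraries held 62.7, 111 and 63.3 FPKM in the Dnmt3-sufficient and 130, 80.3 and 124 in the Dnmt3-deficient group, all above all nB and GCB libraries. From nB to BMPC Ppp3cc rose from 29.7 ± 8.45 to 79.1 ± 27.8 FPKM in Dnmt3-sufficient cells (log2 change 1.36, adjusted p 0.00685) and from 22.6 ± 7.07 to 111 ± 27.0 in Dnmt3-deficient cells (2.27, adjusted p 1.40e-04). From GCB to BMPC it rose by 1.90 (adjusted p 8.22e-04) and by 2.16 (2.43e-04). These 4 calls were kept under each of the 14 alternatives run for each, with adjusted p of at most 0.0482. In bulk libraries such as these, more cells of a type and more RNA per cell cannot be told apart, and with the reads scaled to each library's total a level is relative to all other genes.

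Ppp3cb (Entrez 19056, chromosome 14, 21318586 to 21365795), for the beta form, was at 14.9, 17.3 and 15.1 FPKM in Dnmt3-sufficient nB and 12.0, 11.2 and 6.38 in Dnmt3-deficient nB. The GCB libraries held 11.6, 15.9 and 20.2 FPKM in the Dnmt3-sufficient and 18.05, 9.44 and 18.9 in the Dnmt3-deficient group. Dnmt3-sufficient BMPC held 15.1, 10.3 and 12.1 FPKM. The Dnmt3-deficient BMPC libraries were the lowest of all, at 5.31, 3.999 and 0.670 FPKM. Among Dnmt3-deficient cells Ppp3cb fell from 15.5 ± 5.22 FPKM in GCB to 3.33 ± 2.39 in BMPC (-2.08, adjusted p 0.00422). It also fell from nB, where it was at 9.88 ± 3.06 FPKM (-1.49, adjusted p 0.0250). No change of Ppp3cb between cell types was called in Dnmt3-sufficient cells. Whether its changes into BMPC differed between the genotypes was not tested. The call from nB was lost without nB replicate 1 (0.0866), nB replicate 2 (0.0748) or BMPC replicate 3 (0.110, change -0.91) of the Dnmt3-deficient groups and with median of ratios scaling (0.0543), voom (0.0650), library weights (0.108) or a fit of only those groups (0.158), and the call from GCB in a fit of only those groups (0.0756).

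Ppp3r1 (Entrez 19058, chromosome 11, 17059266 to 17100378), which encodes the regulatory B subunit, was called in no comparison with all libraries. It was at 13.9, 15.7 and 6.80 FPKM in Dnmt3-sufficient nB, and Dnmt3-deficient nB held 5.46, 7.95 and 9.12. In GCB the values were 10.9, 16.8 and 3.89 FPKM and 11.9, 6.50 and 15.6. In BMPC they were 7.16, 20.1 and 11.8 FPKM in the Dnmt3-sufficient group and 2.00, 22.1 and 0.916 in the Dnmt3-deficient group. The 3 libraries of the last group spanned the whole range of the 18, the lowest and the highest value both being there, and all groups overlapped each other. Without Dnmt3-deficient BMPC replicate 2, which held the highest value, Ppp3r1 was called lower in the other BMPC libraries of that genotype than in nB and in GCB.

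The calcineurin-regulated NFAT factors are described first by their summed level, which was not tested, and then gene by gene. The summed FPKM of Nfatc1, Nfatc2 and Nfatc3 ran from 33.3 to 52.5 among nB libraries, from 15.3 to 27.3 among GCB and from 8.21 to 14.96 among BMPC, and all nB libraries lay above all others. Nfatc1 was the largest part of the sum in nB, at 50.5 to 68.8%, and spanned 48.4 to 65.9% in GCB and 36.6 to 96.6% in BMPC.

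**Figure D2:**
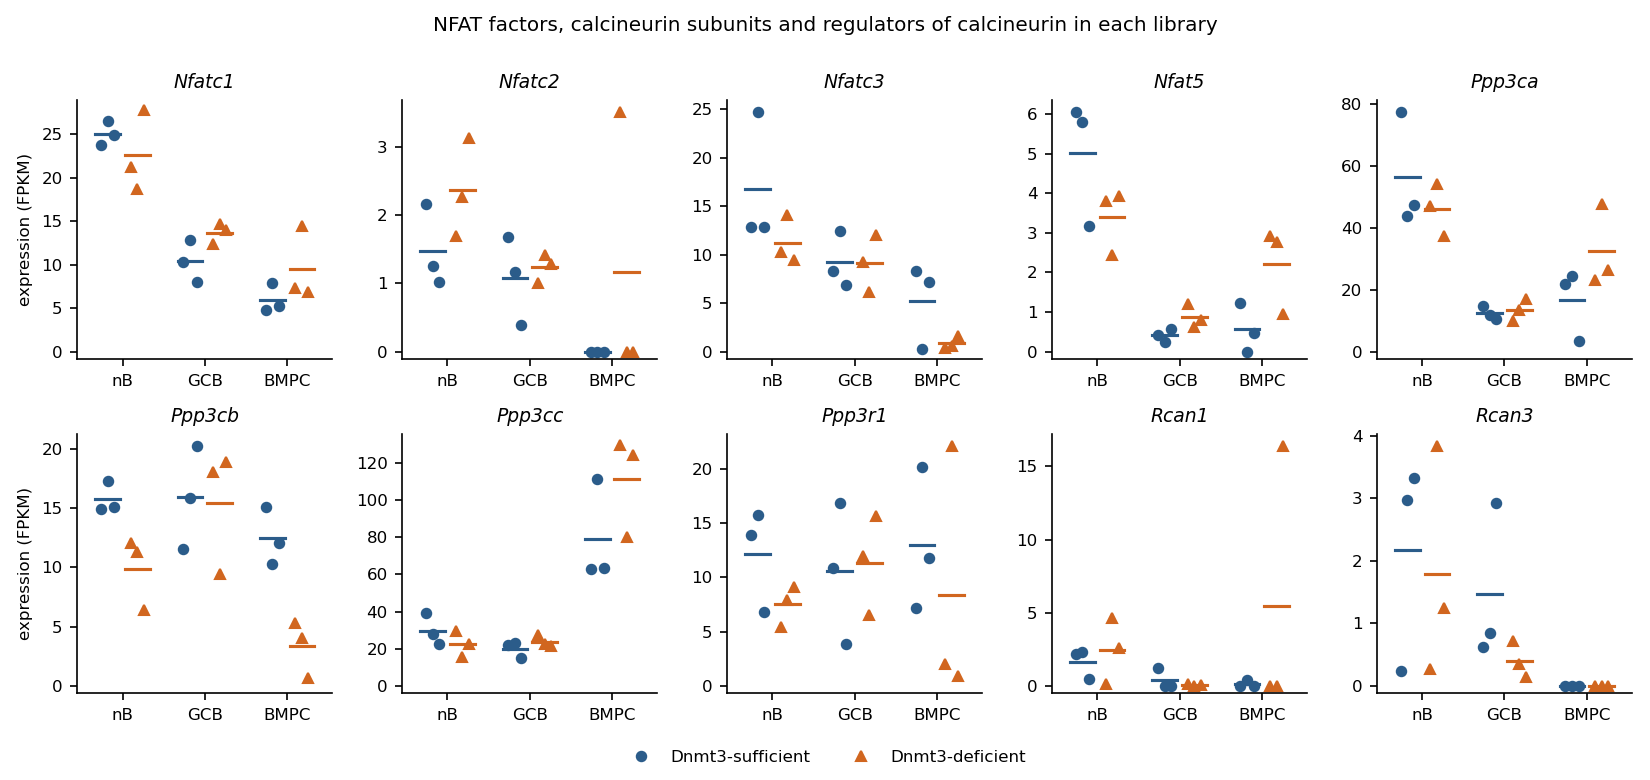
Expression (FPKM, a separate axis for each gene) of the 10 genes in each of the 18 libraries, with circles for Dnmt3-sufficient and triangles for Dnmt3-deficient libraries and a bar at each group mean (n = 3). Ppp3cc has its highest means in BMPC, Nfatc1, Nfat5 and Ppp3ca have theirs in nB, and Nfatc2 is at 0 in 5 of 6 BMPC libraries.

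Nfatc1 (Entrez 18018, chromosome 18), the family member known for its induction by its own pathway in activated lymphocytes, was at 23.7, 26.5 and 24.9 FPKM in Dnmt3-sufficient nB and 21.3, 18.7 and 27.8 in Dnmt3-deficient nB. It was at 10.3, 12.8 and 8.03 FPKM in Dnmt3-sufficient GCB and 12.4, 14.7 and 14.0 in Dnmt3-deficient GCB. In BMPC it was at 4.78, 7.92 and 5.26 FPKM and at 7.33, 14.4 and 6.89. All nB libraries lay above all GCB and BMPC libraries. Its mean in Dnmt3-sufficient nB was 25.1 ± 1.41 FPKM and fell to 10.4 ± 2.39 FPKM in GCB (-1.22, adjusted p 0.0404). In BMPC it fell to 5.99 ± 1.69 FPKM (-1.92, adjusted p 9.00e-04). In Dnmt3-deficient cells it fell from 22.6 ± 4.68 FPKM to 9.54 ± 4.21 in BMPC (-1.21, adjusted p 0.0195), while the change to 13.7 ± 1.17 FPKM in GCB was -0.67 and was not called. The BMPC libraries are also those for which the study named Nfatc1 and Nfatc2, so the changes of these genes into BMPC are not independent of how they were chosen. The call from nB to GCB was lost without any 1 of the 6 libraries (0.0593 to 0.156), with a pseudocount of 0.1 (0.0763) and with sex as a covariate (0.0505), and that from nB to BMPC in Dnmt3-deficient cells without nB replicate 3 (0.0823) or BMPC replicate 3 (0.0516) of that genotype, with median of ratios scaling (-0.97, 0.0608), library weights (0.0542) or a fit of only those groups (0.0767).

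Nfatc2 (Entrez 18019, chromosome 2, 168301910 to 168427157), the other factor the study names, was a low gene throughout. It was at 2.17, 1.25 and 1.02 FPKM in Dnmt3-sufficient nB and 1.70, 2.26 and 3.14 in Dnmt3-deficient nB. The GCB libraries held 1.67, 1.16 and 0.395 FPKM in the Dnmt3-sufficient and 1.01, 1.42 and 1.29 in the Dnmt3-deficient group. In BMPC it was at 0 in all 3 Dnmt3-sufficient libraries and in Dnmt3-deficient replicates 2 and 3, while replicate 1 held 3.51 FPKM, from 60 reads, the highest value of any library. Taking 3 reads per library as the floor, Nfatc2 was at least 15.6-fold lower in Dnmt3-sufficient BMPC than in nB (1.48 ± 0.609 FPKM, adjusted p 0.0465), a bound that covers counting error only. This call was lost without any 1 of the 6 libraries (0.0629 to 0.141), without a filter on low values (0.0536), with median of ratios scaling (0.0590), library weights (0.1498) or sex as a covariate (0.0725). In Dnmt3-deficient cells the mean was 2.37 ± 0.725 FPKM in nB and 1.17 ± 2.03 FPKM in BMPC. This fall was not called (limma adjusted p 0.112). It was called with a pseudocount of 0.1, with voom and without BMPC replicate 1 of that genotype.

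The 2 RefSeq start sites of Nfatc2 are shown because this gene is named by the study and was read in only 1 BMPC library. Each window holds the 250 bases before a start, from RefSeq build GRCm38.p6, written 5′ to 3′ on the gene's strand, which is the minus strand. Each matched mm9 once, at chr2:168427158-168427407 for the upstream start, outside the annotated gene, and at chr2:168415866-168416115 for the second, inside the gene and in none of its exons. Capitals mark the NFAT core GGAAA on either strand, with 3 matches in the first window and 1 in the second.
Nfatc2 upstream start: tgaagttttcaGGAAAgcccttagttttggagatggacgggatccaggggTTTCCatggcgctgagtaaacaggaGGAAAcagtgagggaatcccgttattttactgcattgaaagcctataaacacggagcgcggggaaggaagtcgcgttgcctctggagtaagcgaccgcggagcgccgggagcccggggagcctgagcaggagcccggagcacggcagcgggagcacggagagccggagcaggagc
Nfatc2 internal start: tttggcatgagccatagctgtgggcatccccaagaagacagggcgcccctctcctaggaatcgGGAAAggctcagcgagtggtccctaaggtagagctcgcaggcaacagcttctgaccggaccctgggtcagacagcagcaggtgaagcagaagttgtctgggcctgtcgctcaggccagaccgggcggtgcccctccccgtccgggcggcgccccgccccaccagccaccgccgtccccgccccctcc
Of 32851 RefSeq windows of this length, 55.6% held at least 1 such core and 6.39% at least 3, so the letters are common and a match is a description, not a site.

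Nfatc3 (Entrez 18021, chromosome 8, 108582740 to 108654437), a factor expressed in many lymphoid cells, was at 12.9, 24.7 and 12.9 FPKM in Dnmt3-sufficient nB and 10.3, 14.1 and 9.43 in Dnmt3-deficient nB. It was at 8.37, 12.5 and 6.91 FPKM in Dnmt3-sufficient GCB and 9.24, 6.18 and 12.0 in Dnmt3-deficient GCB. In Dnmt3-sufficient BMPC it was at 8.28, 0.281 and 7.16 FPKM, and in Dnmt3-deficient BMPC at 0.374, 0.564 and 1.62, which rest on 4, 5 and 24 reads. These 3 libraries and Dnmt3-sufficient BMPC replicate 2 were the lowest of the 18. In Dnmt3-deficient cells Nfatc3 fell from 11.3 ± 2.46 FPKM in nB to 0.852 ± 0.670 in BMPC (-2.77, adjusted p 0.00262) and from 9.15 ± 2.93 in GCB (-2.47, adjusted p 0.00659), and both calls were kept under each of 14 alternatives. In Dnmt3-sufficient cells it fell from 16.8 ± 6.85 to 5.24 ± 4.33 FPKM between nB and BMPC (-1.89, adjusted p 0.0258), a call lost without nB replicate 2 (0.101) or BMPC replicate 2 (0.124, change -0.97) of that genotype, with library weights (0.0677) or in a fit of only those groups (0.178).

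Nfat5 (Entrez 54446, chromosome 8, 109817370 to 109903417), the osmotic stress factor of the family, was at 6.05, 5.79 and 3.17 FPKM in Dnmt3-sufficient nB and 3.81, 2.43 and 3.92 in Dnmt3-deficient nB. In GCB it was at 0.421, 0.249 and 0.572 FPKM and at 1.19, 0.632 and 0.807. In BMPC it was at 1.24, 0 and 0.465 FPKM in the Dnmt3-sufficient and 2.93, 2.77 and 0.960 in the Dnmt3-deficient group. All nB libraries lay above all GCB libraries. Between Dnmt3-sufficient nB and GCB Nfat5 fell from 5.004 ± 1.59 to 0.414 ± 0.162 FPKM (-2.05 ± 0.41 SE, adjusted p 0.00233). Its mean in Dnmt3-sufficient BMPC was 0.568 ± 0.625 FPKM, a change of -1.98 from nB (adjusted p 0.00130), and both calls were kept under each of 14 alternatives. In Dnmt3-deficient cells the change from 3.39 ± 0.828 to 0.878 ± 0.287 FPKM in GCB was -1.22 with an adjusted p of 0.0613 and was not called. It was called without a filter on low values, with library weights and in a fit of only those groups. The mean in Dnmt3-deficient BMPC was 2.22 ± 1.09 FPKM, a change of -0.49 from nB that was not called (limma adjusted p 0.360).

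Rcan1 (Entrez 54720, chromosome 16, 92392198 to 92466391), a calcineurin inhibitor whose short form is itself switched on by NFAT in many cells, differed widely between libraries of the same group. It was at 2.15, 2.35 and 0.488 FPKM in Dnmt3-sufficient nB and 0.0999, 4.66 and 2.56 in Dnmt3-deficient nB. In GCB it was at 1.25, 0 and 0 FPKM and at 0.0957, 0 and 0.0904. In BMPC 4 of 6 libraries were at 0, Dnmt3-sufficient replicate 2 was at 0.420 FPKM, and Dnmt3-deficient replicate 3 was at 16.4 FPKM, from 93 reads, the highest of all libraries. With 3 reads per library as the floor, the mean in Dnmt3-deficient GCB was at least 17.1-fold lower than in nB (2.44 ± 2.28 FPKM). Without nB replicate 2, which held the highest of the 3 nB values, it was at least 9.33-fold lower. This compares means only, since nB replicate 1, with 2 reads, was itself under the floor. The change in the limma fit was -1.40 (95% interval -3.20 to 0.39, adjusted p 0.347). No change of Rcan1 was called between any groups.

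The windows before the 2 RefSeq starts of Rcan1 are shown because only the second, which lies before the start of the short form, held both motifs that NFAT and its AP-1 partners are known to bind. They matched mm9 once each, at chr16:92466415-92466664, outside the gene, and at chr16:92400324-92400573, inside the gene and in none of its exons, both on the minus strand. Capitals mark the NFAT core as above and the AP-1 motif TGACTCA on either strand. The internal window held 3 cores, which began 227, 193 and 163 bases before the start, and 1 AP-1 match 110 bases before it, with no overlap between them, while the upstream window held neither.
Rcan1 upstream start: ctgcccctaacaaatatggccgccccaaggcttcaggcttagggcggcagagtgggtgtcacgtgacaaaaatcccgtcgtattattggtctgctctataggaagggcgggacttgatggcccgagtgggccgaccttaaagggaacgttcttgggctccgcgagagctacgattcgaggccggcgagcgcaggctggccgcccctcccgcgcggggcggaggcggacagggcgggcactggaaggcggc
Rcan1 internal start: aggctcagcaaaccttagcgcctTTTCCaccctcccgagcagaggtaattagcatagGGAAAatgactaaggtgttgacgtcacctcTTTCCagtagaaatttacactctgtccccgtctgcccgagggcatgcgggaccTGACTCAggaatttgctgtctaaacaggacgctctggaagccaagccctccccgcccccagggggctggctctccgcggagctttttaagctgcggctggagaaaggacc
The AP-1 motif was present in 4.46% of all such windows. FPKM sums the exons of all forms, so the forms of Rcan1 were not told apart, and the absence of these letters from a window says nothing about binding elsewhere.

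Rcan3 (Entrez 53902, chromosome 4, 134968223 to 134989768), another member of the inhibitor family, was at 0 reads in all 6 BMPC libraries. It was at 0.236, 2.97 and 3.32 FPKM in Dnmt3-sufficient nB and 0.272, 3.83 and 1.24 in Dnmt3-deficient nB. The GCB values were 0.621, 0.853 and 2.92 FPKM in the Dnmt3-sufficient and 0.711, 0.342 and 0.134 in the Dnmt3-deficient group. Against the floor of 3 reads its mean was at least 11.1-fold lower in BMPC than in nB (2.17 ± 1.69 FPKM) in Dnmt3-sufficient cells (adjusted p 0.0326), or at least 8.16-fold without nB replicate 3. In that genotype nB replicate 1, at 0.236 FPKM, lay near the mean floor of 0.196 FPKM in BMPC. In Dnmt3-deficient cells the mean of Rcan3 was at least 5.03-fold lower (adjusted p 0.0616, not called), or at least 2.14-fold without nB replicate 2. This compares means, and nB replicate 1 of that genotype, at 0.272 FPKM, lay under the mean floor of 0.354 FPKM in BMPC. The difference in Dnmt3-deficient cells was called with a pseudocount of 0.1, with voom and without nB replicate 1. The call in Dnmt3-sufficient cells was lost without nB replicate 2 (0.118) or 3 (0.128) or any 1 BMPC library of that genotype (0.0620 to 0.0634), with library weights (0.209) or a fit of only those groups (0.0926).

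The order of the 10 genes by mean FPKM changed with the cell type. Ppp3ca was first in both nB groups and its lowest library lay above the highest of the next gene. In Dnmt3-sufficient nB Ppp3cc, Nfatc1, Nfatc3, Ppp3cb and Ppp3r1 followed, each overlapping its neighbour, and Nfat5, Rcan3, Rcan1 and Nfatc2 were lower, again overlapping each other. In Dnmt3-sufficient GCB the first 6 genes, from Ppp3cc at 20.04 ± 4.42 FPKM to Nfatc3 at 9.26 ± 2.89, overlapped neighbour by neighbour, and the other 4 lay below them. In both BMPC groups Ppp3cc was first and apart from Ppp3ca, the next.

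Over the 10 genes, 3 fell and 0 rose from nB to GCB in Dnmt3-sufficient cells, where 6.93% of all genes tested fell and 7.22% rose. The threshold for a call was a log2 change of at least 1 together with an adjusted p no higher than 0.05. Their median log2 change was -0.65, against -0.11 over all genes. In Dnmt3-deficient cells 1 fell and 0 rose (background 6.61% and 6.31%), with a median of -0.62 against -0.13. From nB to BMPC, 6 fell and 1 rose in Dnmt3-sufficient cells (background 27.6% and 9.74%), with a median of -1.38, against -0.70 over all genes. It was -1.18 at the floor, that is, with members at or under the floor in every library of a group set to it. The medians over all genes were not set to the floor. In Dnmt3-deficient cells 3 fell and 1 rose (background 30.6% and 6.85%), with a median of -0.86 or -0.77 at the floor against -0.84. For the 8 genes that the study does not name, the counts from nB to BMPC were 4 lower and 1 higher in Dnmt3-sufficient and 2 lower and 1 higher in Dnmt3-deficient cells. From GCB to BMPC, 0 fell and 1 rose in Dnmt3-sufficient cells (background 20.9% and 6.67%) and 2 fell and 1 rose in Dnmt3-deficient cells (background 26.1% and 6.14%). Their medians were -0.26 and -0.45 (-0.26 and -0.23 at the floor), against -0.565 and -0.73 over all genes. The comparisons that start or end in the same cell type share its libraries. Median of ratios scaling moved the median of all genes from -0.84 to -0.695 from nB to BMPC and from -0.73 to -0.571 from GCB to BMPC in Dnmt3-deficient cells.

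**Figure D3:**
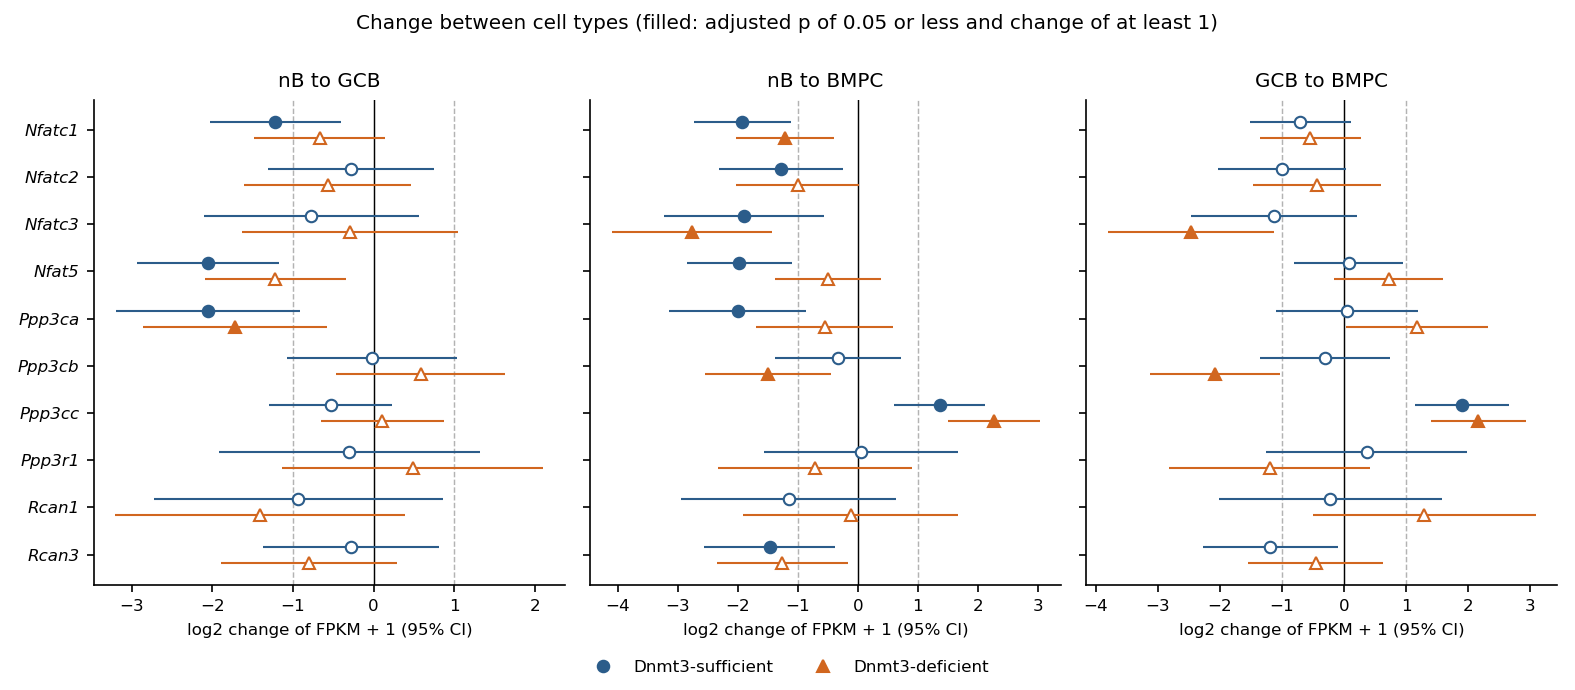
Change of the 10 genes between cell types on the log2(FPKM + 1) scale, with 95% confidence intervals of the limma fit, for Dnmt3-sufficient (circles) and Dnmt3-deficient (triangles) cells, filled where called and with dashed lines at a change of 1. Ppp3cc is the only filled point to the right of 0, with changes of 1.36 to 2.27 into BMPC.

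The genotypes were compared within naive cells to ask whether loss of Dnmt3a and Dnmt3b alters the pathway before immunization. None of the 10 genes was called, where 0.0521% of all genes tested were, and none had an unadjusted p under 0.05 (the lowest was 0.198) with limma, nor was any called by voom. The lowest p was that of Ppp3cb, which was at 15.8 ± 1.32 FPKM in nB of Dnmt3-sufficient mice and 9.88 ± 3.06 FPKM in those of Dnmt3-deficient mice, a difference of -0.67 with a 95% interval from -1.72 to 0.38 and an adjusted p of 1. It was the only one of the 10 whose groups did not overlap, against 8.84% of all genes tested. Nfatc1 differed by -0.16 (interval -0.97 to 0.65) and Nfatc2 by 0.45 (-0.59 to 1.48), so that a rise of 1 on the log2 scale lies inside the interval of Nfatc2.

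In germinal center cells 0 of the 10 genes were called between the genotypes, with limma and with voom, against 0.0% of all genes tested with limma (124 genes had an unadjusted p under 0.05, none of them among the 10). Rcan3 had the lowest unadjusted p of the 10, at 0.178, with 1.46 ± 1.26 FPKM in Dnmt3-sufficient and 0.396 ± 0.292 in Dnmt3-deficient GCB (difference -0.73, interval -1.81 to 0.36). Nfat5 was higher in every Dnmt3-deficient library, at 0.632 to 1.19 FPKM against 0.249 to 0.572, as the only one of the 10 whose groups did not overlap (10.6% of all genes tested), and its difference was 0.40 (interval -0.47 to 1.28). Nfatc1 differed by 0.39 (interval -0.42 to 1.20) and Nfatc2 by 0.15 (-0.88 to 1.19). The interaction term, which asks whether the change from nB to GCB differed between the genotypes, passed for none of the 10 (0 called with limma and with voom, against 0.0% of all genes tested with limma), the lowest unadjusted p being 0.172 for Nfat5, with a difference of changes of 0.84 (interval -0.40 to 2.08). So the calls for Nfatc1 and Nfat5 in Dnmt3-sufficient cells alone are not shown to be particular to that genotype. The matching terms with BMPC hold the difference that chose Nfatc1 and Nfatc2 and were not tested. Calls into BMPC in a single genotype are therefore not shown to be particular to it either. From nB these are calls of Ppp3ca, Ppp3cb, Nfatc2, Nfat5 and Rcan3, and from GCB those of Ppp3cb and Nfatc3.

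**Figure D4:**
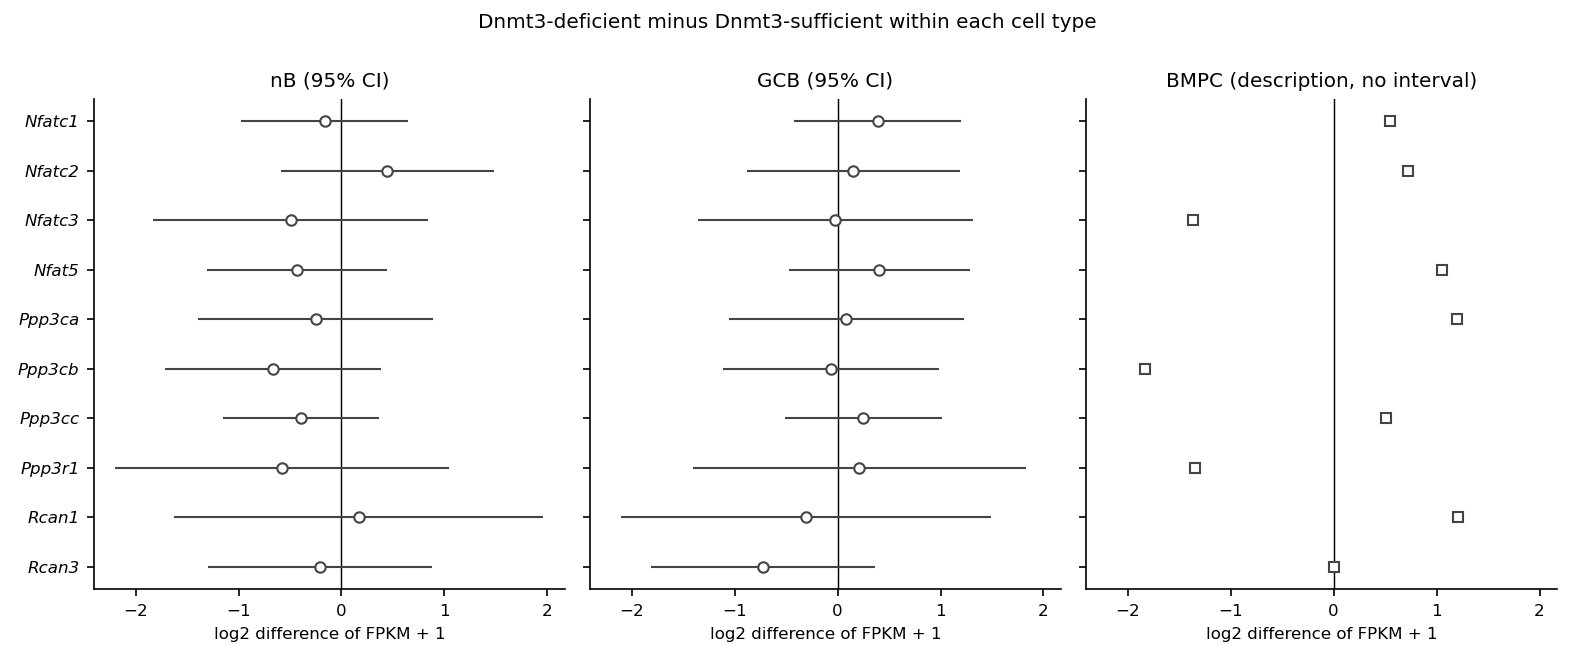
Difference between Dnmt3-deficient and Dnmt3-sufficient libraries of the 10 genes on the log2(FPKM + 1) scale, with 95% confidence intervals of the limma fit in nB and GCB and values alone in BMPC, where the choice of genes used this difference. All intervals in nB and GCB include 0.

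In plasma cells the difference between the genotypes took both directions among the 10 genes. These values are given as a description, since they chose Nfatc1 and Nfatc2. Nfatc1 had a mean of 9.54 FPKM in Dnmt3-deficient and 5.99 in Dnmt3-sufficient BMPC, a difference of 0.55 on the log2(FPKM + 1) scale, and its ranges of 6.89 to 14.4 and 4.78 to 7.92 overlapped. For Nfatc2 the mean of 1.17 against 0 FPKM came from 1 of 3 Dnmt3-deficient libraries. That library, replicate 1, held 7.33 FPKM of Nfatc1, inside the Dnmt3-sufficient range. The highest BMPC values of Nfatc1, Ppp3ca and Ppp3r1 were in Dnmt3-deficient replicate 2, which with 1355231 reads was the shallowest library of all. Nfat5 was higher by 1.05 (2.22 against 0.568 FPKM) and Ppp3ca by 1.20 (32.4 against 16.6), both with overlapping ranges. The difference of 1.20 for Rcan1 rested on Dnmt3-deficient replicate 3. Ppp3cc was higher by 0.51. Lower in Dnmt3-deficient BMPC were Nfatc3 (a difference of -1.37), Ppp3r1 (-1.35) and Ppp3cb (-1.83), and Ppp3cb alone had groups that did not overlap, as did 10.3% of all genes tested. Rcan3 was at 0 in both groups. Summed erythroid markers were lower in each Dnmt3-deficient than in each Dnmt3-sufficient BMPC library (1523 to 4342 against 4500 to 7202 FPKM), while the sums of macrophage markers (98.4 to 227 against 63.5 to 87.7) and of plasma cell markers (34158 to 51658 against 19038 to 29689) were higher. Most of the plasma cell sum was Jchain, at 29771 to 46609 against 16189 to 25611 FPKM. Irf4, another of these markers, was lower in each Dnmt3-deficient library (14.5, 0.315 and 27.9 against 37.3, 55.2 and 44.1 FPKM), Mzb1 and Tnfrsf17 were higher in each, and Sdc1, Xbp1, Prdm1 and Slamf7 overlapped between the genotypes. The macrophage sum was mostly Cd68 (98.4 to 158 against 40.5 to 87.6 FPKM). Their part in these differences was not tested.

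The promoter window of Ppp3cb is shown because it was the only one of the 10 genes with BMPC groups apart. The 250 bases before its RefSeq start matched mm9 once, at chr14:21365796-21366045 on the minus strand, outside the gene. It held 3 NFAT cores, in capitals, which began 223, 186 and 82 bases before the start.
Ppp3cb start: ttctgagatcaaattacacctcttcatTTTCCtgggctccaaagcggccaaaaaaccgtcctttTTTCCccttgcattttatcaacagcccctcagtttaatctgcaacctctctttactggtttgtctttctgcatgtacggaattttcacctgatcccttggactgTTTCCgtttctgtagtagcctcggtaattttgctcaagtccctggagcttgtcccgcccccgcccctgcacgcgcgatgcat
Windows were given for 7 of the 10 genes, 10 windows in all, and 7 of these held at least 1 NFAT core. They held 6 to 29 CpG dinucleotides, the sites of DNA methylation, against a median of 6 over all RefSeq windows. Dinucleotides were counted in the reference sequence, and methylation was not analysed here.

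The genes around calcineurin and NFAT were described from 7 lists with 68 genes, of which 61 passed the filter. From nB to GCB, 4 of the 61 rose and 5 fell in Dnmt3-sufficient cells (6.56% and 8.20%, against 7.22% and 6.93% of all genes) and 3 rose and 4 fell in Dnmt3-deficient cells (4.92% and 6.56%, against 6.31% and 6.61%), with list medians of -0.47 and -0.28 against -0.11 and -0.13 over all genes. From nB to BMPC 5 rose and 23 fell in Dnmt3-sufficient and 7 rose and 23 fell in Dnmt3-deficient cells, which is 37.7% lower in each genotype where 27.6% and 30.6% of all genes were, with list medians of -1.0 and -0.97 against -0.70 and -0.84 over all genes. The rises are 8.2% and 11.5% of the 61, where 9.74% and 6.85% of all genes rose. From GCB to BMPC 2 rose and 15 fell (3.28% higher against 6.67%, 24.6% lower against 20.9%), and 2 rose and 17 fell (3.28% against 6.14%, 27.9% against 26.1%). Shares of the 61 genes were thus near those of all genes from nB to GCB, as were the shares that fell from GCB to BMPC. In the genotype comparisons within nB and GCB and in their interaction 0 of the 61 were called by limma or by voom, and 1, 0 and 1 had an unadjusted p under 0.05.

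Of 12 genes of calcium entry and release, 2 rose and 1 fell from nB to GCB in each genotype, with list medians of -0.84 and -0.57 against -0.11 and -0.13 over all genes. This is 16.7% and 8.33% of a small list. Over all genes 7.22% rose and 6.93% fell in Dnmt3-sufficient and 6.31% rose and 6.61% fell in Dnmt3-deficient cells. Calm3 and Calm2 encode calmodulin, the calcium sensor that activates calcineurin. In Dnmt3-sufficient cells Calm3 rose from 16.9 to 49.99 FPKM (1.54, adjusted p 0.00177) and Calm2 from 452 to 982 (1.12, adjusted p 9.00e-04). Itpr1, a calcium release channel of the endoplasmic reticulum, fell from 17.6 to 2.27 FPKM (-2.40, adjusted p 0.0305). From nB to BMPC 1 rose and 7 fell in Dnmt3-sufficient and 1 rose and 8 fell in Dnmt3-deficient cells, with medians of -2.00 and -2.03 against -0.70 and -0.84. These falls are 58.3% and 66.7% of the list, where 27.6% and 30.6% of all genes fell. The rise is 8.33% of the list, where 9.74% and 6.85% of all genes rose. The largest falls in Dnmt3-sufficient cells were those of Orai2, a channel subunit of the plasma membrane (29.4 to 1.87 FPKM, -3.90, adjusted p 0.00131), and Itpr3 (18.5 to 1.06 FPKM, -3.55, adjusted p 2.45e-04). In Dnmt3-deficient cells they were those of Plcg2, the phospholipase that starts calcium release (90.9 to 10.2 FPKM, -3.23, adjusted p 1.52e-05), and Orai2 (34.5 to 7.42 FPKM, -2.98, adjusted p 0.00886). Calm3 rose from 16.9 to 78.0 FPKM in Dnmt3-sufficient cells (2.17, adjusted p 3.42e-05).

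Of 7 genes of the B cell receptor and its first kinases, 0 were called from nB to GCB (2 had an unadjusted p under 0.05 in each genotype) and 6 fell into BMPC from nB and from GCB, in each genotype, with medians from nB to BMPC of -4.27 in Dnmt3-sufficient and -2.52 in Dnmt3-deficient cells. This is 85.7% of a small list, where 27.6% and 30.6% of all genes fell from nB and 20.9% and 26.1% fell from GCB. Among them the kinase Btk fell from 201.2 to 5.08 FPKM in Dnmt3-sufficient cells (-6.00, adjusted p 1.19e-05). In Dnmt3-deficient cells the kinase Syk fell from 115 to 2.95 FPKM (-5.13).

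**Figure D5:**
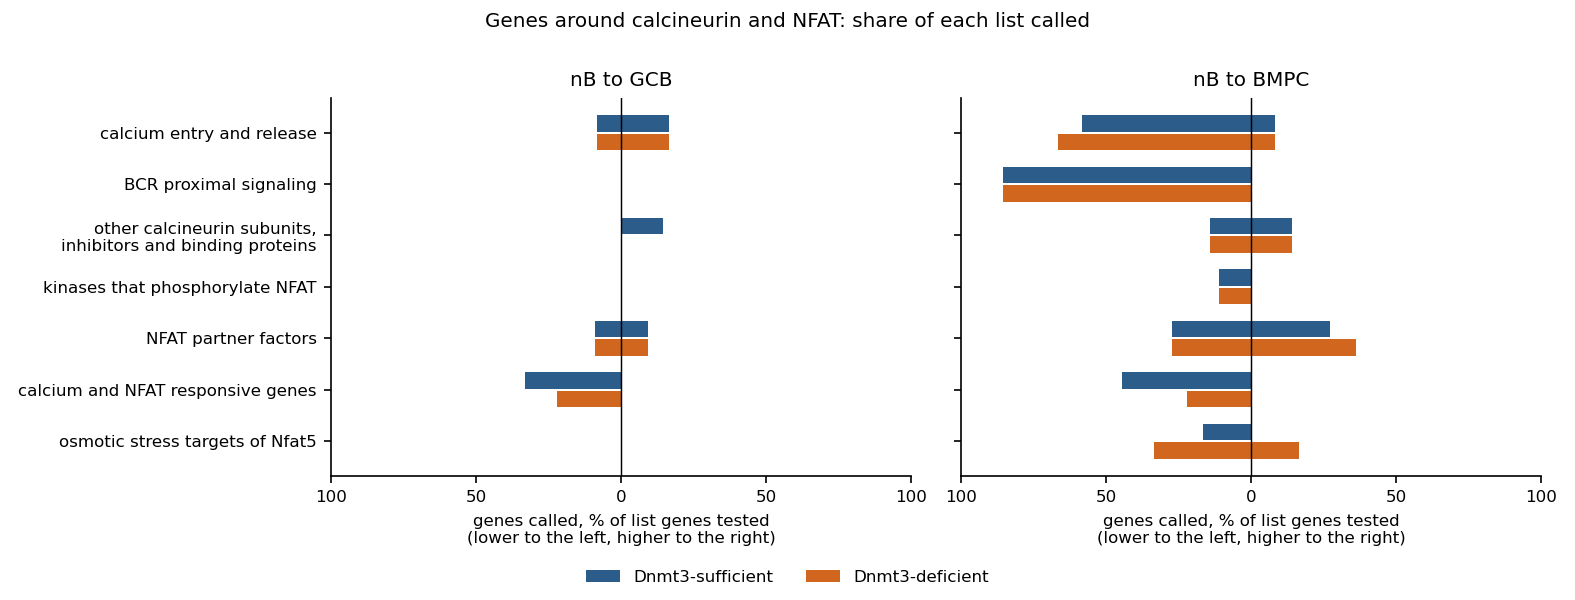
Share of the tested genes (%) of each of the 7 lists that fell (bars to the left of 0) or rose (bars to the right) from nB to GCB and from nB to BMPC in Dnmt3-sufficient (blue) and Dnmt3-deficient (orange) cells. Receptor signaling and calcium entry have the longest bars, with 6 of 7 and 7 or 8 of 12 genes lower in BMPC.

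Of 9 tested genes that calcium and NFAT signaling is known to induce, 3 fell from nB to GCB and 4 from nB to BMPC in Dnmt3-sufficient cells, and 2 and 2 in Dnmt3-deficient cells, with 0 that rose. These are 33.3% and 44.4% of the list in Dnmt3-sufficient cells (6.93% and 27.6% of all genes fell) and 22.2% in both comparisons in Dnmt3-deficient cells (6.61% and 30.6%), the last of which is under the share of all genes. Egr3, an immediate early factor, fell from 11.2 FPKM in Dnmt3-sufficient nB to 0.203 in GCB (-3.09, adjusted p 3.60e-04) and was at 0 in all BMPC libraries. Nr4a1, an early marker of receptor signaling, fell from 17.2 to 0.679 FPKM in GCB (-3.31, adjusted p 3.69e-04) and to 0.185 in BMPC. Of 11 tested factors that bind beside NFAT, 1 rose and 1 fell from nB to GCB in each genotype, and 3 rose and 3 fell from nB to BMPC in Dnmt3-sufficient and 4 rose and 3 fell in Dnmt3-deficient cells. From nB to GCB this is 9.09% of the list in each direction. Over all genes 7.22% rose and 6.93% fell in Dnmt3-sufficient and 6.31% rose and 6.61% fell in Dnmt3-deficient cells. Of the list 27.3% fell into BMPC, near the 27.6% and 30.6% of all genes, and 27.3% and 36.4% rose, where 9.74% and 6.85% of all genes did. Fos, an AP-1 subunit, rose from 5.97 to 164 FPKM in GCB (5.12, adjusted p 3.51e-04) and to 138 in BMPC (4.89, adjusted p 2.24e-04) in Dnmt3-sufficient cells. Ets1, a lymphoid factor, fell from 200.9 to 15.06 FPKM in BMPC (-4.98, adjusted p 8.67e-04). Foxp1, a factor of resting lymphocytes, fell from 77.4 to 14.0 FPKM in GCB (-2.38, adjusted p 0.00277).

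Among 7 tested genes of other calcineurin subunits, inhibitors and binding proteins, Fkbp1a, whose product carries the drug FK506 onto calcineurin, rose from 3.87 to 20.04 FPKM from nB to GCB in Dnmt3-sufficient cells (2.53, adjusted p 0.0392). Ppia, the cyclophilin that carries cyclosporin, rose from 1348 to 3659 FPKM from nB to BMPC (1.44, adjusted p 2.04e-08), and Cabin1, a calcineurin inhibitor, fell from 12.0 to 2.33 FPKM (-2.61, adjusted p 0.00261). These were the only calls of that list in those comparisons. Each is 14.3% of the list, where 7.22% of all genes rose into GCB and 9.74% rose and 27.6% fell into BMPC. In Dnmt3-deficient cells 0 were called from nB to GCB (1 at an unadjusted p under 0.05), while 1 rose and 1 fell into BMPC (14.3% of the list lower, under the 27.6% and 30.6% of all genes in the 2 genotypes). Of 9 kinases that phosphorylate NFAT, 0 were called from nB to GCB (0 at an unadjusted p under 0.05 in either genotype) and 1, Csnk1d, fell into BMPC, from 15.1 to 1.19 FPKM in Dnmt3-sufficient cells (-3.03, adjusted p 5.78e-04), and 1 fell in Dnmt3-deficient cells, which is 11.1% of the list and under the share of all genes. Of 6 tested osmotic targets of Nfat5, 0 were called from nB to GCB (0 and 1 at an unadjusted p under 0.05), and from nB to BMPC Slc5a3, an inositol transporter, fell in Dnmt3-sufficient cells from 1.58 to 0.167 FPKM (-1.14, adjusted p 0.0147). In Dnmt3-deficient cells 2 fell and Hspa1b, a heat shock chaperone, rose from 0.211 to 6.91 FPKM (2.07, adjusted p 0.0153), so that 16.7% and 33.3% of this list fell, against 27.6% and 30.6% of all genes.

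The genes with the pattern most like each member over the 18 libraries were those with the smallest root mean square difference of log2(FPKM + 1), each gene centred on its own mean. For Nfatc1 they were Bcl9l (0.292) and Syf2 (0.299), against 0.627 for Nfat5, the nearest of the other 9 members, and a median of 1.10 over all genes. For Ppp3cc they were Gid4 (0.313) and Vimp (0.378), and the nearest member was far, Nfat5 at 1.34. Ppp3ca was nearest to H2-D1 (0.464) and Fbxl12 (0.546), Ppp3cb to Snrnp25 (0.415) and Chsy1 (0.429), and Ppp3r1 to Fopnl (0.518) and Srsf4 (0.583). Nfatc2 was nearest to Btbd7 (0.324) and Camk2d (0.420), Nfatc3 to Smg6 (0.473) and Rbbp6 (0.517), and Nfat5 to Etnk1 (0.426) and Fuca1 (0.461). Rcan1 was nearest to Dnajc28 (0.275) and Pim3 (0.470) and Rcan3 to Iigp1 and Gm2897 (both 0.466). These distances describe the libraries, in which depth and cell type are shared by all genes. The highest values of Rcan1 (16.4 FPKM) and Nfatc2 (3.51 FPKM) each came from a single BMPC library. The part of these libraries in their distances was not tested.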

How the data were processed

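RNA of sorted nB, GCB and BMPC was copied into cDNA, amplified by PCR and sequenced in 18 libraries. The authors mapped reads to mm9 with TopHat, counted those on UCSC KnownGenes exons with summarizeOverlaps and computed the deposited FPKM, in which immunoglobulin genes are not in the denominator. Their processing notes name Picard, R 3.2.2 and edgeR 3.12.1. The kit does not mark strand, so overlapping genes are uncertain. The authors' comparison columns (fold changes and FDR) were not used, and 0 columns belonged to other samples.

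Whole reads were recovered from FPKM and exon length for all values (tolerance 0.02). The main test was limma 3.58.1 (R 4.3.3) with a trend on log2(FPKM + 1), which understates changes of low genes, 1 mean per group over all libraries, two-sided, with Benjamini-Hochberg adjustment over 11522 genes. The floor was 3 reads per library. Without molecular identifiers, it covers counting error only, and p-values measure the spread between libraries, which may be partly technical. Scripts used pandas 2.3.3, numpy 2.4.6 and matplotlib 3.10.9 and were tested on simulated data. Other settings tried were median of ratios scaling, a pseudocount of 0.1, testing without a filter or with 3 FPKM in 3 libraries or more as the filter, voom on the recovered reads, library weights (arrayWeights), sex as a covariate, only the groups compared, leaving out each library and a pool block in GCB. Leaving out libraries for folds against the floor was added after seeing the data. The 10 genes and the lists were chosen with earlier results of these data known. All 10 were named. Per list and comparison at most 2 rising and 2 falling called genes could be named, and per member the 2 nearest genes. The values of 1 list gene are not reported here.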

Additional observations from a re-analysis of the deposited data

How the results depend on the processing

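No called change of the 10 genes turned its sign under any alternative. The number of the 10 genes called moved as follows. From GCB to BMPC in Dnmt3-sufficient cells it was 1 as reported, 3 with a pseudocount of 0.1 or with voom and 2 with only the groups compared. From nB to GCB in Dnmt3-deficient cells it was 1, and 0 with a pseudocount of 0.1, 2 without a filter, with library weights or with only the groups compared, and 0 to 0 without each library in turn. From nB to BMPC it was 4 in Dnmt3-deficient cells, 6 with a pseudocount of 0.1, 5 with voom, 2 with median of ratios scaling, library weights or only the groups compared, and 2 to 5 without each library. In Dnmt3-sufficient cells it was 7, 4 with library weights or only the groups compared, and 4 to 6 without each library. From nB to GCB in Dnmt3-sufficient cells it was 3, and 1 to 2 without each library. Without each library it was 1 to 1 and 3 to 4 from GCB to BMPC in Dnmt3-sufficient and Dnmt3-deficient cells. The cause of these moves was not tested. The genotype comparisons in nB and GCB and the interaction stayed at 0 of the 10 throughout. Over all genes, the counts called went from 6 to 3 (pseudocount of 0.1), 20 (no filter), 9 (voom), 11 (library weights), 0 (only the groups compared) and 9 to 13 (without each nB library) between the genotypes in nB, from 0 to 2 (no filter or voom), 3 (library weights) and 0 to 2 (without each GCB library) in GCB, and from 0 to 5, 1 and 4 (no filter, library weights, only the groups compared) and 0 to 1 (without each library) for the interaction. From nB to GCB they went from 1631 to 3259 in Dnmt3-sufficient and from 1489 to 3163 in Dnmt3-deficient cells with library weights, and to 2653 and 2561 with only the groups compared, which took nB to BMPC from 4299 to 2806 and from 4311 to 2836. Of the 61 list genes, those called from nB to GCB went from 9 and 7 to 15 and 15 with library weights, and from 7 to 14 in Dnmt3-deficient cells with only the groups compared, while GCB to BMPC in those cells went from 19 to 11 with voom, 12 with only the groups compared and 12 and 11 without GCB replicates 2 and 3. Between the genotypes in nB 1 list gene was called without Dnmt3-deficient replicate 2. With the pool name shared by GCB libraries as a replicate block, 0 genes were called between the genotypes in GCB, as without it. Same-named pools, which also shared a sex, did not deviate together (correlations of -0.017 to 0.026 across genes). Such correlations, taken about means of 3 libraries, cannot tell whether these pools were handled together. In BMPC, reads were as few as 0 for Nfatc2, Nfat5, Rcan1 and Rcan3, 4 for Nfatc3 and 7 for Ppp3cb and Ppp3r1, so small levels there could not be told from 0.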
